A study of Mus musculus with 16 samples.

Results

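Retinol reaches cells on a carrier, enters through a receptor, and its acid form is held in the cytosol by small binding proteins. The genes described here are the 4 that encode these steps by name: Rbp4 (the blood carrier of retinol), Stra6 (the cell-surface receptor that takes retinol from that carrier), and Crabp1 and Crabp2 (the cytosolic binding proteins of retinoic acid). They were chosen by symbol, and are 4 of the 57180 genes in the count files and 4 of the 17276 that passed the filter on low counts. The data are poly(A)-selected RNA sequencing libraries made from the whole lungs of E14.5 mouse fetuses (E, embryonic day), male by the series' design text, and the stated purpose was to find genes whose expression differs with BMS493. BMS493 is a pan inverse agonist of the retinoic acid receptors (RARs): it binds them all and lowers their activity below that without ligand.

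There were 4 groups of 4 libraries. B6 control lungs came from C57BL/6J fetuses whose dams had corn oil by mouth from E9.5 to E14.5, and B6 BMS493 lungs from C57BL/6J fetuses whose dams had 3.75 µg of BMS493 per g per day by mouth over the same days. A/J control and A/J BMS493 lungs came from A/J fetuses with the same treatments. No transgene or mutation is named for any group, and A/J and C57BL/6J are inbred strains. The drug was given to the dam, not to the lung. The labels do not give litters, nor whether a library is 1 fetus or a pool, and p-values measure the spread between these libraries.

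As background, retinol in blood travels bound to Rbp4, which is made chiefly by the liver and joins transthyretin. Stra6 moves retinol across the membrane and is named for its induction by retinoic acid. Inside the cell retinol is stored as ester by Lrat or oxidised to retinaldehyde and then to retinoic acid, and Crabp2 passes retinoic acid to its nuclear receptors, while Crabp1 holds it in the cytosol and is linked to its breakdown by Cyp26 enzymes. In the fetal lung the acid is made largely by Aldh1a2 in mesothelium and mesenchyme, and it is known for its part in lung bud formation and in restraint of airway smooth muscle.

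Between 15207539 and 24146224 counts per library were assigned to genes. The lung labels were met by their markers: all 10 tested lung mesenchyme markers and all 10 epithelial markers were measured above the filter. In the B6 BMS493 group, replicates 2 and 3 stood apart. The summed CPM (counts scaled to a common library size) of the 10 mesenchyme markers was 11121 in replicate 3 against 6177 to 7308 in the other 7 B6 libraries. This rise was that of the collagen genes Col1a1 and Col3a1, which summed to 10095 CPM in replicate 3 and 5012 to 6145 CPM in the other 7, while the other 8 markers summed to 1026 CPM in replicate 3 and 1120 to 1165 CPM in the other 7. The summed CPM of the 10 epithelial markers was 2710 in replicate 2 and 2080 in replicate 3 against 1569 to 1817 in the other 6. The main results that rest on this group are therefore also given without these libraries, an alternative chosen after their values were seen.

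Since BMS493 acts on receptors that bind DNA, the starts of the genes were read for the letters these receptors prefer. RefSeq promoter windows (GRCm38.p6, 250 bases before to 50 after each annotated start) were at hand for 3 of the 4 genes: Stra6 has 4 annotated starts, Rbp4 has 2 and Crabp1 has 1. Crabp2 had no entry. Both strands were searched for the retinoid receptor hexamer AGGTCA and its close forms, which are AGTTCA, then GGGTCA and then GGTTCA, for the same hexamers as direct repeats spaced by 1, 2 or 5 bases, for TATAAA and for the GC box GGGCGG. The window shown for Stra6 and the one for Rbp4 are those that hold a hexamer, and the Crabp1 window is shown as the one without. Capitals mark every match, in the orientation in which the strand of the gene reads, and no match shown overlaps another.
Stra6, window 3, chr9:58133825-58134124, plus strand: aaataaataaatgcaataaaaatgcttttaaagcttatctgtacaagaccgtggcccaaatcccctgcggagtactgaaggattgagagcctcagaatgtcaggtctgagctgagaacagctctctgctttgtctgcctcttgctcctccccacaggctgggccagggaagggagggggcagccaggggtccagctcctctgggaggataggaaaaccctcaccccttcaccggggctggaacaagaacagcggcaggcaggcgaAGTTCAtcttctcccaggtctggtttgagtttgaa
Rbp4, window 2, chr19:38125272-38125571, minus strand: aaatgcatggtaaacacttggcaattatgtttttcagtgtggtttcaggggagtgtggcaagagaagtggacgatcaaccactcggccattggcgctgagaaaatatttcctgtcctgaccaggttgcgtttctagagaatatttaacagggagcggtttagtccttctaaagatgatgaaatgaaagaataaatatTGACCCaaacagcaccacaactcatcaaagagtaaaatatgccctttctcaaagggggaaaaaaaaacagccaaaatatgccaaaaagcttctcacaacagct
Crabp1, chr9:54764498-54764797, plus strand: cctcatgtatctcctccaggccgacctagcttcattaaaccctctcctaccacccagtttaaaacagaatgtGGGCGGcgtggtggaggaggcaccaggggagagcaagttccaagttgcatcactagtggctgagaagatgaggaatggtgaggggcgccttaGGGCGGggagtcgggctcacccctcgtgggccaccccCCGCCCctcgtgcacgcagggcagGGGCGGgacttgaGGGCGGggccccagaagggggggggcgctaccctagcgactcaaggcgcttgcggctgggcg

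The Stra6 window holds AGTTCA starting at position 16 counted from the annotated start. The Rbp4 window holds GGGTCA on the opposite strand, read here as TGACCC, at position -53. The Crabp1 window holds 5 GC boxes, at positions -178, -86, -49, -25 and -12. Single hexamers are common letters: 43.7% of the 32851 mouse windows of this length hold at least 1 of the 4, and 35.7% hold a GC box. The other 3 Stra6 windows hold GC boxes, and the first Rbp4 window holds 2 GC boxes and TATAAA, at position -28. Of all windows, 13.6% hold TATAAA at any position. None of the 7 windows holds a direct repeat of the hexamers, which 0.222%, 0.268% and 0.0974% of all windows do at spacings of 1, 2 and 5 bases. These matches describe letters in the windows shown, not binding.

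All 4 genes were measured in every library, with low counts of 29 to 298 each. Per length of exon (CPM per kb over the union of annotated exons, mean of 16 libraries, with the SD within groups), the level was 1.06 ± 0.241 for Stra6, 3.46 ± 0.494 for Rbp4, 4.15 ± 1.08 for Crabp2 and 5.65 ± 1.69 for Crabp1. Stra6 was the lowest, beyond the spread, while neighbours among the other 3 did not differ beyond theirs. With the longest transcript as length, Stra6 stood at 2.01, Rbp4 at 4.00, Crabp1 at 5.65 and Crabp2 at 5.89 CPM per kb, so that Stra6 stayed lowest and the order of Crabp1 and Crabp2 turned. On the first scale the share of 16935 tested genes with a lower level was 25.2% for Stra6, 43.9% for Rbp4, 47.4% for Crabp2 and 54.3% for Crabp1.

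Of the 4 genes, the uptake receptor Stra6 passed the test for BMS493. It fell in B6 lungs to less than its control level in every library, was lower in every BMS493 library of A/J as well, and its fall averaged over the strains was 1.94-fold. Neither the carrier Rbp4 nor the binding proteins Crabp1 and Crabp2 passed the test for BMS493 in either strain. Between the strains, Stra6, Crabp2 and Rbp4 were higher in A/J lungs than in B6 lungs when both treatments were averaged, by 1.89-fold, 1.92-fold and 1.39-fold, and Crabp1 did not pass the test. In whole lungs, fewer cells of a type and less RNA per cell cannot be told apart.

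**Figure D1:**
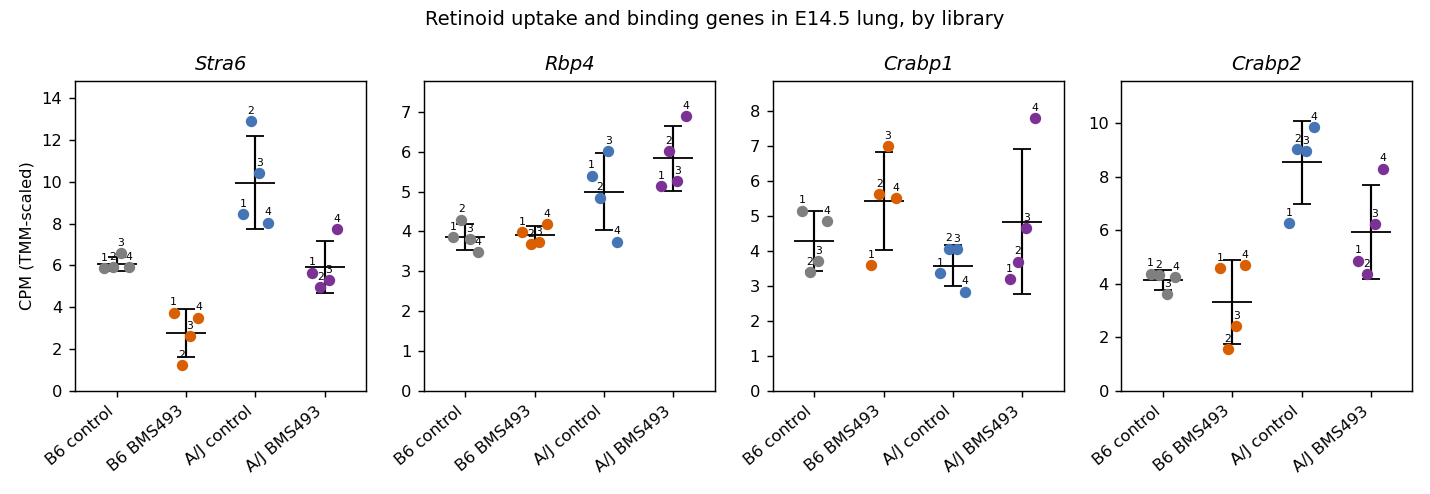
Level of each gene in each library, in CPM scaled by TMM (vertical axis from 0), by group (horizontal axis). Points are libraries numbered by replicate, long bars are means and whiskers are SD over 4 libraries. All Stra6 points with BMS493 lie below the controls of the same strain, and A/J points of Crabp2 in controls lie above all B6 points.

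Stra6, the receptor, fell in B6. In B6 controls Stra6 stood at 5.88, 5.91, 6.58 and 5.90 CPM in replicates 1 to 4, a mean of 6.07 ± 0.341 (SD, n = 4). With BMS493 it stood at 3.74, 1.23, 2.60 and 3.50 CPM, a mean of 2.77 ± 1.14 (SD, n = 4). All BMS493 libraries lay below all controls, and replicate 2 was the lowest, with 29 counts. The fitted fall was 2.22-fold (log2 -1.15, SE 0.24, adjusted p = 0.0268 by edgeR), and Stra6 was the 1 gene of the 4 called in B6, where 0.347% of all genes tested were called lower and 0.0752% higher. Separation of all 4 libraries from all 4 in the lower direction was seen for 2.63% of genes.

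In A/J controls Stra6 stood at 8.44, 12.9, 10.4 and 8.06 CPM, a mean of 9.96 ± 2.22 (SD, n = 4). With BMS493 it stood at 5.66, 4.97, 5.30 and 7.76 CPM, a mean of 5.92 ± 1.25 (SD, n = 4). The groups again did not overlap, though the highest BMS493 library, replicate 4, lay just under the lowest control. The fitted difference was 1.69-fold lower (log2 -0.76, 95% interval -1.20 to -0.31), with an adjusted p of 0.172 by edgeR, so it did not pass the test over all genes. None of the 4 genes was called in A/J, where 0.486% of all genes were (0.423% lower and 0.0637% higher), and DESeq2 also called none. Stra6 was called there with no filter on low counts (adjusted p = 0.00127), from the second strand column (0.0266) and with only the A/J groups in the fit (0.0292). At an unadjusted p under 0.05 edgeR had 2 of the 4, Stra6 (0.00176) and Crabp2 (0.0451), beside 1076 of the 17276 genes tested. Separation in the lower direction was seen for 2.84% of all genes in A/J.

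The Stra6 effects of the strains were not told apart. The difference of the A/J effect from the B6 effect was 0.39 on the log2 scale (95% interval -0.27 to 1.06, adjusted p = 0.999 by edgeR), an interval that includes 0. None of the 4 genes was called in this test by edgeR or DESeq2, while 1 of the 17276 genes (0.00579%) was called by edgeR. None of the 4 had an unadjusted p under 0.05, while 636 of all genes did. Averaged over the strains, Stra6 fell by 0.95 on the log2 scale (SE 0.16, adjusted p = 0.00129), again as the 1 gene of the 4, where 1.09% of all genes were called lower. This averaged fall passed the test under each of the 25 alternatives run, at log2 values from -1.23 to -0.68.

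The call in B6 alone was less firm than the averaged one. Without replicates 2 and 3 of B6 BMS493 the fall in B6 was 0.75 on the log2 scale with an adjusted p of 0.172, while the averaged fall was then 0.75 with an adjusted p of 0.000623. Leaving out 1 library at a time kept the call in B6 in 2 of 8 fits, those without BMS493 replicate 1 or replicate 4, with log2 values from -1.35 to -0.87 over the 8.

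The carrier Rbp4 varied little within B6. It stood at 3.87, 4.30, 3.81 and 3.48 CPM in B6 controls (mean 3.86 ± 0.337, SD, n = 4) and at 3.99, 3.68, 3.74 and 4.19 CPM with BMS493 (mean 3.90 ± 0.237, SD, n = 4). In A/J controls it stood at 5.40, 4.85, 6.01 and 3.74 CPM (mean 5.001 ± 0.964, SD, n = 4) and with BMS493 at 5.15, 6.03, 5.26 and 6.90 CPM (mean 5.83 ± 0.812, SD, n = 4). Treated and control libraries overlapped in both strains. The log2 difference with BMS493 was 0.0073 in B6 (95% interval -0.34 to 0.36, adjusted p = 0.993) and 0.22 in A/J (95% interval -0.11 to 0.54, adjusted p = 0.960). Averaged over the strains it was 0.11 (95% interval -0.13 to 0.35, adjusted p = 0.791), an interval that leaves out a change as large as that of Stra6. The value was 0.069 in B6 and 0.14 averaged without replicates 2 and 3 of B6 BMS493, with no call.

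Crabp1, the form held in the cytosol, was spread widely within the BMS493 groups. It stood at 5.16, 3.39, 3.71 and 4.85 CPM in B6 controls (mean 4.28 ± 0.860, SD, n = 4) and at 3.58, 5.62, 7.01 and 5.51 CPM with BMS493 (mean 5.43 ± 1.41, SD, n = 4). In A/J it stood at 3.38, 4.07, 4.05 and 2.84 CPM in controls (mean 3.58 ± 0.594, SD, n = 4) and at 3.20, 3.70, 4.65 and 7.81 CPM with BMS493 (mean 4.84 ± 2.07, SD, n = 4). The groups overlapped in both strains, and the high values with BMS493 were replicate 3 in B6 and replicate 4 in A/J. The log2 difference with BMS493 was 0.35 in B6 (SE 0.24, adjusted p = 0.706), 0.42 in A/J (SE 0.24, adjusted p = 0.921) and 0.38 averaged over the strains (95% interval 0.028 to 0.74, adjusted p = 0.410). Without replicates 2 and 3 of B6 BMS493 the value was 0.087 in B6 (adjusted p = 0.993) and 0.25 averaged (adjusted p = 0.763). Leaving out 1 library gave 0.21 to 0.50 in B6 and 0.096 to 0.57 in A/J, the lowest in A/J without BMS493 replicate 4. Without A/J BMS493 replicate 4 the interaction estimate for Crabp1 moved from 0.074 to -0.25, both with adjusted p of 0.999 or more.

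Crabp2, the form that delivers retinoic acid to the nucleus, split the B6 BMS493 group. It stood at 4.38, 4.34, 3.61 and 4.26 CPM in B6 controls (mean 4.15 ± 0.362, SD, n = 4) and at 4.59, 1.56, 2.40 and 4.71 CPM with BMS493 (mean 3.32 ± 1.58, SD, n = 4). Replicates 2 and 3 lay below all controls, and replicates 1 and 4 above all of them. In A/J controls it stood at 6.27, 9.05, 8.97 and 9.87 CPM (mean 8.54 ± 1.57, SD, n = 4), and with BMS493 at 4.87, 4.36, 6.23 and 8.31 CPM (mean 5.94 ± 1.77, SD, n = 4). In A/J, 3 of the 4 BMS493 libraries were below all controls, and replicate 4 lay within the control range.

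The Crabp2 difference with BMS493 did not pass the test. Its log2 value was -0.33 in B6 (SE 0.28, adjusted p = 0.759), -0.53 in A/J (SE 0.25, adjusted p = 0.777) and -0.43 averaged over the strains (95% interval -0.81 to -0.044, adjusted p = 0.385). Without replicates 2 and 3 of B6 BMS493 the sign in B6 turned, to 0.16 (adjusted p = 0.977), and the averaged value was -0.18 (adjusted p = 0.780).

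The strain comparisons set A/J against B6 lungs within each treatment. In controls, A/J was higher for Stra6 (1.65-fold, log2 0.72, adjusted p = 0.0225) and Crabp2 (2.06-fold, log2 1.04, adjusted p = 0.00632), 2 of the 4 genes against 7.04% of all genes called higher in A/J and 16.9% called in either direction. All 4 A/J control libraries lay above all 4 B6 controls for both genes, as for 10.7% of all genes. For Rbp4 the control difference was 0.37 on the log2 scale (adjusted p = 0.130), and A/J control replicate 4, at 3.74 CPM, lay inside the B6 range. Crabp1 was at -0.24 (95% interval -0.75 to 0.27, adjusted p = 0.569), with overlapping groups. The Stra6 call was lost in 4 of 8 fits that each left out 1 library, those without B6 control replicate 1, 2 or 4 or A/J control replicate 2, with the lowest value, 0.57, in the last.

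With BMS493, A/J was higher for Stra6 (2.16-fold, log2 1.11, adjusted p = 0.00160), Crabp2 (1.80-fold, log2 0.85, adjusted p = 0.0287) and Rbp4 (1.49-fold, log2 0.58, adjusted p = 0.0128), 3 of the 4 genes against 7.93% of all genes called higher. The groups did not overlap for Stra6 and Rbp4, as for 8.74% of all genes, and overlapped for Crabp2. Crabp1 was at -0.17 (95% interval -0.66 to 0.33, adjusted p = 0.689). Without replicates 2 and 3 of B6 BMS493, Stra6 was still called (log2 0.70, adjusted p = 0.0262), while Crabp2 (log2 0.35, adjusted p = 0.383) and Rbp4 (log2 0.51, adjusted p = 0.108) were not. In that fit 4.48% of all genes were called higher. Leaving out 1 library ended the Crabp2 call for B6 BMS493 replicate 2 or 3 and A/J BMS493 replicate 3 or 4 (log2 0.59 to 0.82), and the Rbp4 call for A/J BMS493 replicate 4 (log2 0.49, adjusted p = 0.0567).

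Averaged over treatments, the 8 A/J libraries were higher than the 8 B6 libraries for Stra6 (log2 0.92, adjusted p = 0.000101), Crabp2 (log2 0.94, adjusted p = 0.000426) and Rbp4 (log2 0.48, adjusted p = 0.00249). These 3 calls of 4 stand against 14.2% of all genes called higher in A/J, and each held in all 25 alternatives. None of the 3 genes separated all A/J from all B6 libraries, as 3.77% of all genes did in this direction. The highest B6 library was at 6.58 CPM against a lowest A/J library of 4.97 for Stra6, at 4.30 against 3.74 for Rbp4 and at 4.71 against 4.36 for Crabp2. In order of mean level, A/J control was the highest group for Stra6 and Crabp2 and B6 BMS493 the lowest, and for Stra6 the middle groups, B6 control and A/J BMS493, did not differ beyond their spread.

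**Figure D2:**
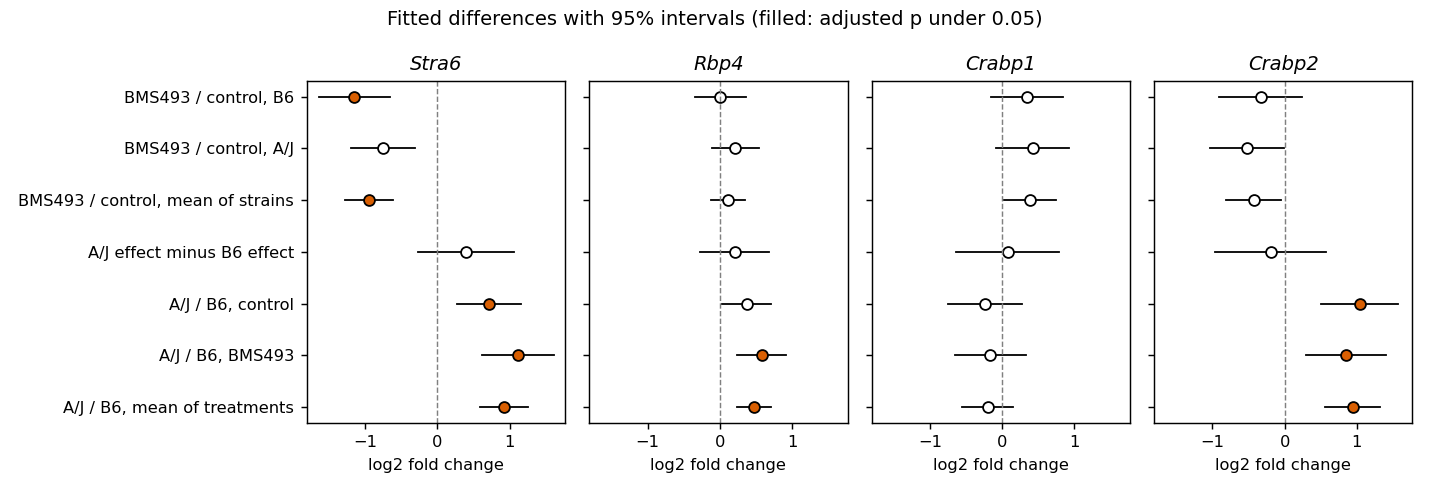
Fitted log2 fold change (horizontal axis) of each gene for 7 comparisons (vertical axis), with 95% intervals as lines. Filled points have an adjusted p under 0.05: Stra6 is filled for BMS493 in B6 and for the mean of the strains, Stra6 and Crabp2 for all 3 A/J against B6 rows, Rbp4 for 2 of them, and Crabp1 for none.

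Markers of other cell types differed between the strains along with these genes. Of 8 endothelial markers, 6 were called lower in A/J in controls and 8 with BMS493 (median log2 -0.38 and -0.44), where 9.84% and 12% of all genes were called lower, and none was called higher. With BMS493 it was 5 of the 8, beside 6.91% of all genes, once replicates 2 and 3 of B6 BMS493 were left out. Their summed level was 1254 to 1370 CPM in B6 controls, 1162 to 1457 in B6 BMS493, while the A/J controls lay at 904 to 1089 and the A/J BMS493 libraries at 888 to 1066. Of the 10 epithelial markers 3 were called lower in A/J in controls and 4 with BMS493, and their sum was 1569 to 1817, 1645 to 2710, 1287 to 1503 and 1296 to 1524 CPM in the same order of groups. Of the 10 mesenchyme markers 4 were called lower in A/J under each treatment, and Pdgfra was called higher with BMS493. Of 10 neural crest and neuron markers 2 were called higher and 2 lower in controls (median log2 0.57), and 3 higher and 2 lower with BMS493 (median log2 0.80), beside 7.04% and 7.93% of all genes called higher. Their summed level was 38.0 to 46.1 CPM in B6 controls, 30.7 to 35.8 in B6 BMS493, and in A/J 28.8 to 38.3 with corn oil and 28.2 to 32.3 with BMS493. The part of any of these cell types in the strain differences of Stra6, Crabp2 and Rbp4 was not tested.

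Rbp4 is a product of the liver, so a list of 10 liver markers was summed: it gave 26.9 to 41.7 CPM in B6 controls, 21.4 to 46.9 in B6 BMS493, while the A/J controls lay at 11.1 to 13.5 and the A/J BMS493 libraries at 10.3 to 15.6. Most of the sum was the transferrin gene Trf, with means of 26.9 CPM in B6 controls and 9.76 CPM in A/J controls, while Afp, which encodes alpha-fetoprotein, was not called between the strains (adjusted p = 0.516 in controls and 0.594 with BMS493). In controls Trf (log2 -1.46, adjusted p = 1.42e-07) and Alb (log2 -3.16, adjusted p = 0.0294) were called lower in A/J, and with BMS493 Trf was. Beside these, 9.84% and 12% of all genes were called lower. The Alb call was lost without B6 control replicate 1 (log2 -1.86, adjusted p = 0.104) and without any 1 of the 4 A/J controls, and the Trf call held without each control library. Only 3 of the 10 liver markers passed the filter, 5 had under 10 counts in every library, and albumin (Alb) stood at 5.21, 0.868, 0.593 and 0.787 CPM in B6 control replicates 1 to 4 and at 0.193, 0.173, 0.319 and 0.113 CPM in A/J controls. The transthyretin gene Ttr had at most 5 counts in any library. The part of liver RNA in the Rbp4 values was not tested.

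Some markers of the mesothelium, the sheet of cells that covers the lung, were low in the same B6 BMS493 libraries as Stra6 and Crabp2, and others were not. Wt1, a transcription factor of mesothelium, stood at 11.6, 5.45, 6.14 and 9.02 CPM in replicates 1 to 4 and at 10.1 to 11.4 CPM in B6 controls. Aldh1a2, which makes retinoic acid, stood at 53.6, 27.9, 38.6 and 56.3 CPM against 39.6 to 47.9 CPM, and the surface protein gene Upk3b at 49.8, 32.1, 35.7 and 45.5 CPM against 51.6 to 59.7 CPM. Replicates 2 and 3, the lowest for Stra6 and Crabp2, were also the lowest of the group for these 3 genes, and for Bnc1, Lrrn4 and Muc16. For the other 4 markers they were not. How many of all genes were lowest in these libraries was not counted. Gpm6a and Upk1b were highest in replicate 3, at 19.8 and 9.94 CPM, and lowest in replicate 2, at 11.6 and 7.78 CPM. Msln stood at 3.97 and 2.00 CPM in replicates 2 and 3 and at 1.36 and 1.03 CPM in replicates 1 and 4. Krt19, a keratin that airway epithelium also makes, stood at 76.7 and 87.0 CPM in replicates 2 and 3 and at 39.3 and 50.8 CPM in replicates 1 and 4.

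Over the whole list, the summed level of the 10 mesothelial markers was 209 to 228 CPM in B6 controls and 216, 184, 218 and 213 CPM in replicates 1 to 4 with BMS493, so that the sum was lowest in replicate 2 and highest in replicate 3. In A/J it was 223 to 246 CPM in controls and 208 to 229 CPM with BMS493. No marker was at 0. None of the 10 was called with BMS493 in either strain, and Upk3b alone was called lower in the average of the strains, where 0.347% of all genes were called lower in B6, 0.423% in A/J and 1.09% in the average. In controls A/J was higher for Wt1 and Bnc1 and lower for Upk1b, and with BMS493 higher for Wt1, Upk3b, Bnc1 and Aldh1a2 and lower for Krt19, Upk1b and Msln, beside 7.04% of all genes higher and 9.84% lower in controls and 7.93% higher and 12% lower with BMS493. Upk1b alone of the 10 was called between strains with BMS493 once replicates 2 and 3 of B6 BMS493 were left out. In that fit 4.48% of all genes were called higher and 6.91% lower. The part of the mesothelium in the differences of Stra6 and Crabp2 was not tested.

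Smooth muscle markers were also lower in value with BMS493, the treatment with which Stra6 fell. Of 8 markers, Actg2 was called lower in B6, none in A/J, and Actg2, Cnn1 and Acta2 in the average, beside 0.347%, 0.423% and 1.09% of all genes called lower. The list medians were -0.21, -0.16 and -0.16 on the log2 scale. Their summed level was 1222 to 1296 CPM in B6 controls and 1011 to 1193 with BMS493, and 1001 to 1245 and 961 to 1095 CPM in A/J. Of the 10 mesenchyme markers, Meox2 was called higher in B6, in A/J and in the average, beside 13, 11 and 48 of all genes. Foxf1 was called lower in B6 and in the average, and in the average alone without replicates 2 and 3 of B6 BMS493. The part of smooth muscle or mesenchyme in the Stra6 difference was not tested.

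**Figure D3:**
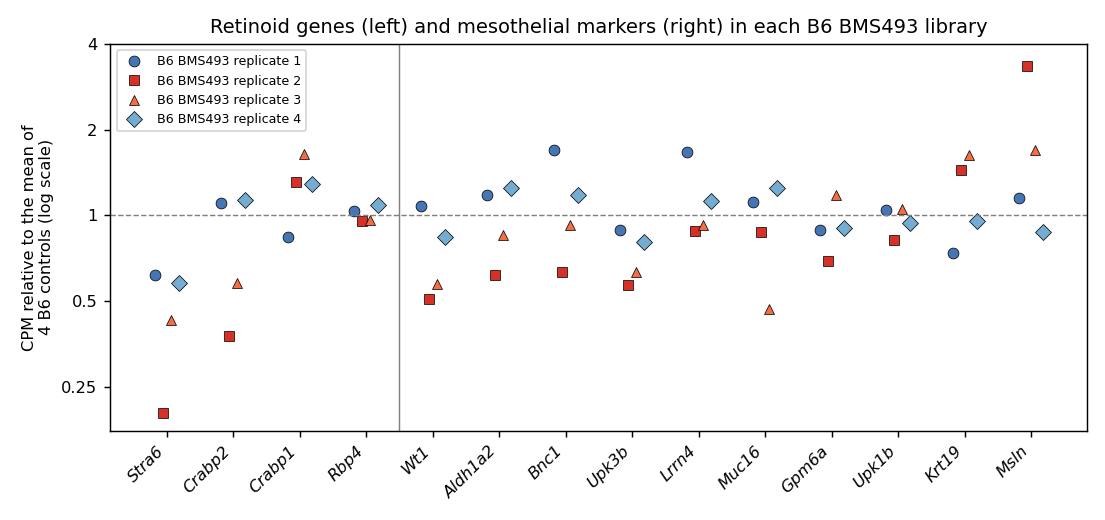
Level of the 4 genes and of 10 mesothelial markers in each B6 BMS493 library, as CPM relative to the mean of 4 B6 controls (vertical axis, log scale, dashed line at 1). Stra6 lies below 1 in all 4 libraries, while Crabp2, Wt1 and Aldh1a2 are lowest in replicates 2 and 3, where Krt19 is highest.

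Stra6 and Crabp2 were the most alike of the 4 genes when all libraries were used. Over the 16 libraries, which share the strain and treatment groups, Pearson's r of their log2 CPM was 0.88, and Crabp2 ranked 29 of 13038 other genes by likeness to Stra6. With the group means removed r was 0.82, and Crabp2 ranked 36. Over the 10 mesothelial markers, r with Crabp2 ran from -0.73 for Krt19, -0.70 for Msln and -0.59 for Upk1b to 0.92 for Wt1, and with group means removed from -0.55 for Krt19 to 0.85 for Aldh1a2. For Crabp1, r with Stra6 was -0.40 over the libraries and 0.11 with group means removed, and with Crabp2 -0.32 and 0.087. Rbp4 had an r of 0.46 with Stra6 and 0.54 with Crabp2 over the libraries. These values are descriptions. Over the 14 libraries without replicates 2 and 3 of B6 BMS493, r of Stra6 with Crabp2 was 0.71 (rank 224) and, with group means removed, 0.52. That of Crabp2 with the 10 mesothelial markers then ran from -0.59 for Upk1b to 0.83 for Wt1, and with group means removed from -0.45 for Gpm6a to 0.47 for Aldh1a2. Crabp1 in turn had an r of 0.58 with Stra6 and 0.62 with Crabp2 with group means removed, so the order of likeness among the 4 genes changed with these 2 libraries.

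The genes most like each of the 4 over the 16 libraries were taken by r among 13039 genes. They were Dpysl4 (r 0.95), Mrvi1 (0.94) and Itih5 (0.93) for Stra6, Uck2 (0.88), Lrp3 (0.87) and Snrnp25 (0.86) for Rbp4, Dcxr (0.81), Vps18 (0.81) and Cib1 (0.78) for Crabp1, and Eif2s1 (0.94), Rspo2 (0.94) and Fam136a (0.94) for Crabp2. With group means removed, the nearest gene was Tmem200c (0.93) for Stra6, Sept9 (0.89) for Rbp4, Aga (0.84) for Crabp1 and Hoxa4 (0.91) for Crabp2. Mrvi1 followed the Stra6 order of groups, with means of 45.9 CPM in B6 control, 31.9 in B6 BMS493, 58.5 in A/J control and 45.6 in A/J BMS493. Hoxa4, a homeobox gene, had means of 14.3, 11.8, 18.3 and 12.3 CPM in the same order.

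The rest of the retinoid pathway was read from 5 lists by role, with 58 other genes of which 42 were tested. In B6, 4 of the 42 fell with BMS493 and none rose, and in A/J 5 fell and none rose, beside 0.347% and 0.423% of all genes called lower. The medians were -0.0056 and -0.0077 on the log2 scale, beside medians of 0.0070 and -0.0019 over all genes. In B6 the calls were 1 of 6 tested storage genes, 1 of 14 synthesis genes, 1 of 2 clearance genes and 1 of 13 receptors and cofactors. The members that fell in both strains were Cyp26b1, which breaks retinoic acid down (log2 -3.68 in B6 and -4.24 in A/J), Lrat, which stores retinol as ester (-2.51 and -5.53), Dhrs3, which reduces retinaldehyde back to retinol (-1.31 and -2.07), and the receptor Rarb (-1.02 and -1.56). Lrat stood at 1.38 CPM in B6 controls and 16.5 CPM in A/J controls. With BMS493 it was near the floor in both strains, at 0.248 and 0.355 CPM, with as few as 3 counts in a library. Nrip1, a receptor corepressor, fell in A/J (-0.37). The calls in B6 were again Cyp26b1, Lrat, Dhrs3 and Rarb without replicates 2 and 3 of B6 BMS493, beside 0.265% of all genes. None of the 42 was called in the test of the difference between strains by edgeR, where Lrat stood at log2 -3.02 (adjusted p = 0.0834). The control samples of a strain are shared by all values given for it.

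Within the list of uptake and binding genes, no gene tested and reported here other than Stra6 passed the test with BMS493. Of the 13 other genes on that list 7 were tested, and none was called with BMS493 in B6 (median log2 0.05), in A/J (median -0.07) or in the average. Lrp2, an endocytic receptor that can take up the Rbp4 complex, stood at 11.3 ± 2.02 CPM in B6 controls, 14.8 ± 4.50 with BMS493, and at 16.3 ± 2.92 and 16.3 ± 2.73 CPM in A/J (SD, n = 4 each), with no call. Stra6l, the relative of Stra6 that serves as receptor in liver, had at most 7 counts in a library and was not tested.

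Between strains this list did not go one way. Fabp5, a lipid-binding protein that can also carry retinoic acid, was higher in A/J, at 74.6 ± 2.58 CPM against 39.8 ± 3.49 in controls (SD, n = 4 each, log2 0.90, adjusted p = 2.65e-09) and by 0.98 with BMS493. The lipase gene Lpl was higher in A/J by 0.56 in controls and 0.46 with BMS493. The scavenger receptor gene Scarb1 was lower in A/J with BMS493, by a log2 value of -0.28 (adjusted p = 0.0103). In controls 2 of the 7 were called higher in A/J and none lower, and with BMS493 2 higher and 1 lower, the same 3 genes without replicates 2 and 3 of B6 BMS493. Of all genes 7.04% were called higher and 9.84% lower in controls, and 7.93% and 12% with BMS493, or 4.48% and 6.91% without those replicates.

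Stra6 and Crabp2 also belong to a list of 23 genes known as targets of retinoic acid, of which 19 were tested. With BMS493, 6 of the 19 were called lower in B6 and 5 in A/J, none higher, where 0.347% and 0.423% of all genes were called lower, with list medians of -0.28 and -0.26 on the log2 scale. Stra6 was among the 6 in B6 with Cyp26b1, Lrat, Dhrs3, Rarb and Hoxa5, and the other 5 were those called in A/J. In the average 9 were lower, with Meis2, Tgm2 and Hoxa4 added, where 1.09% of all genes were. Without replicates 2 and 3 of B6 BMS493, 5 were called in B6, without Stra6, and 8 in the average, without Hoxa4. Of all genes, 0.265% and 1.19% were called lower in that fit. The fall of Stra6 was smaller than those of Cyp26b1, Lrat and Dhrs3 in both strains by value, a difference that was not tested.

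**Figure D4:**
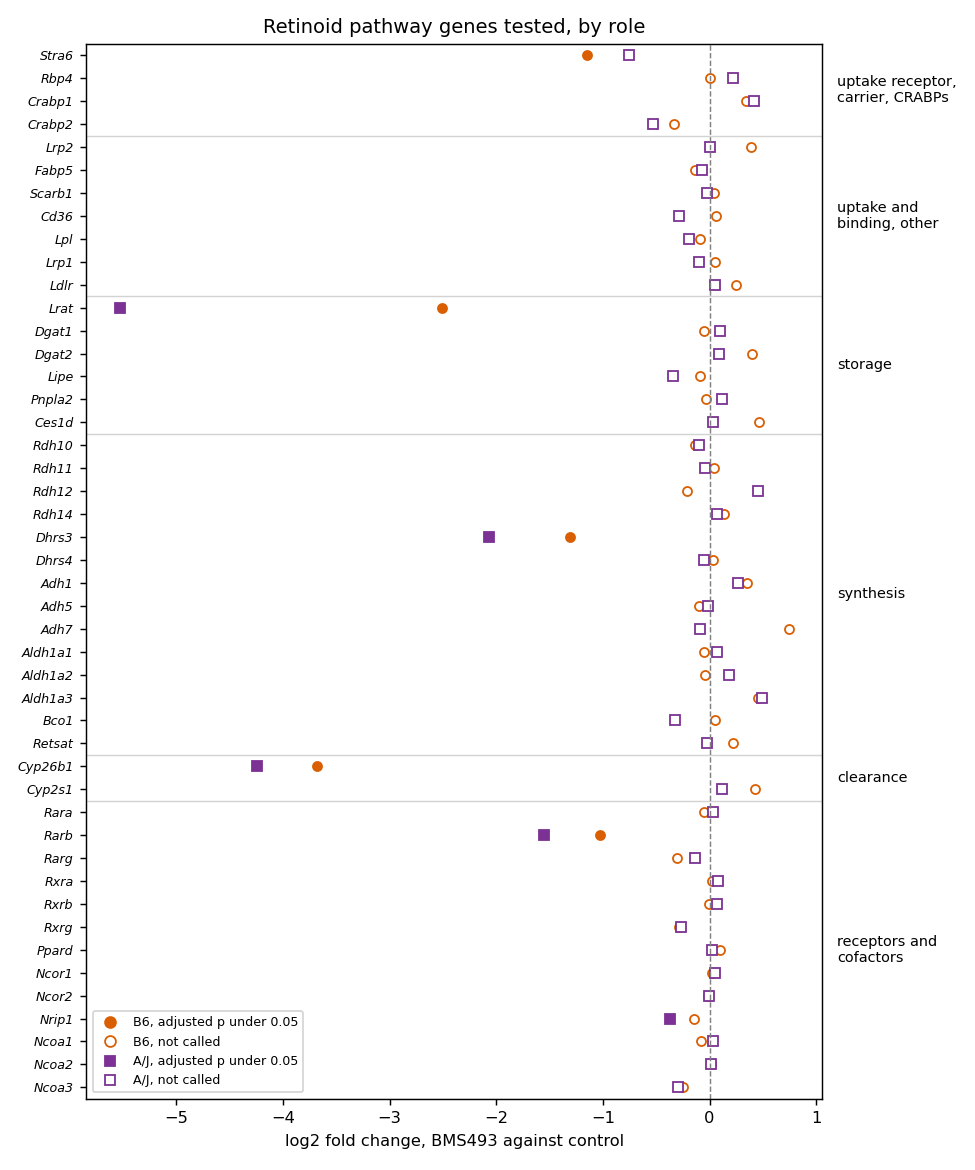
Log2 fold change with BMS493 (horizontal axis) of the 4 genes and of 42 other retinoid pathway genes tested (vertical axis, grouped by role), circles for B6 and squares for A/J. Filled points have an adjusted p under 0.05, and none of them lies above 0. Stra6 in B6 is the only filled point among the uptake and binding genes shown.

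The libraries were read as unstranded, and each file also gives counts for either strand alone. Over all genes the first strand column held 51.0% to 52.0% of the counts of the pair. For Stra6 it held 587 of 1324 counts in controls, 44.3% (95% exact Clopper-Pearson interval 41.6% to 47.1%), and 384 of 706 with BMS493, 54.4% (50.6% to 58.1%). The 8 control libraries lay between 42.4% and 47.4% and the 8 BMS493 libraries between 47.5% and 66.7%, without overlap, which was seen for 2 of 13580 genes (0.0147%) with at least 20 such counts in every library. The other was Gid4, named after its values were seen. For Rbp4 the share was 48.9% in B6 controls (libraries 45.3% to 51.9%) and 62.4% with BMS493 (55.2% to 70.9%), without overlap, while in A/J it was 53.8% and 57.0%, with overlapping libraries. How many of all genes separate in this share within a strain was not counted, and the 0.0147% above is for both strains together. For Crabp1 and Crabp2 the control and BMS493 libraries overlapped in both strains. The intervals speak only to counting error, as reads that carry no molecular identifier may be copies of 1 molecule.

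The Stra6 calls within a strain depended on which strand was read, while the averaged call held from either with a different size. Averaged over the strains it was called from the first column (-0.68, adjusted p = 0.0271) and from the second (-1.23, adjusted p = 0.000112). From the first column the log2 difference with BMS493 was -0.91 in B6 (adjusted p = 0.129) and -0.45 in A/J (adjusted p = 0.767), and from the second it was called in B6 (-1.40, adjusted p = 0.0136) and in A/J (-1.07, adjusted p = 0.0266). In GENCODE M21 Stra6 overlaps Ccdc33 on the opposite strand and the noncoding gene Gm16131 on its own strand, with 0 exonic bases shared with either. No 50-base window of the transcripts of Stra6, Rbp4, Crabp1 or Crabp2 occurs in another gene. The cause of the unequal strands was not tested.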

How the data were processed

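The authors deposited, per the file headers and labels, 1 table of raw gene counts per library in the layout of STAR, and per the submitters' processing notes FastQC, cutadapt, STAR and GRCm39 were used. The annotation release and versions are not given in the sources used here. The column of counts without strand was used (3 columns deposited), and lines that are not genes, 23.1% to 28.3% of fragments, were left out. Symbols and lengths came from GENCODE M21 (51884 of 57180 identifiers matched, 98.9% of counts). The ID of Stra6 is ENSMUSG00000032327, of Rbp4 ENSMUSG00000024990, of Crabp1 ENSMUSG00000032291 and of Crabp2 ENSMUSG00000004885, on chromosomes 9, 19, 9 and 3.

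Genes were filtered with filterByExpr, scaled by TMM and tested with the robust quasi-likelihood test of edgeR 4.0.16 (R 4.3.3) in 1 fit to the 16 libraries, with 12 residual degrees of freedom. P-values are two-sided and Benjamini-Hochberg adjusted over 17276 genes, and a call is an adjusted p under 0.05. Logged CPM used a prior count of 2, and Python 3.11.15 with pandas 2.3.3 made the tables. The fit was also run on simulated counts with a shared mean per gene in all libraries, apart from known changes in B6 BMS493. No strain differences in controls or outlying libraries were simulated, so that run does not bear on calls that depend on them. The genes named are the 4 genes, the retinoid pathway lists, markers of mesenchyme, smooth muscle, epithelium, endothelium, mesothelium, liver, neurons and neuroendocrine cells, and the 3 genes most like each by r. These genes and lists were chosen with earlier results of these data known, and 1 gene of the lists is not reported here or counted in them. Alternatives were RLE scaling, DESeq2 1.42.0, other filters, fewer libraries, a replicate block, library numbers 1 to 8 against 9 to 16, and either strand.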

Additional observations from a re-analysis of the deposited data

Results flagged for a closer look

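In 2 of the 16 combinations of gene and group, 1 library lay far from the other 3, by Dixon's ratio of its gap to the range of the group. Chance alone flags about 1 in 20 such groups. For Stra6 in B6 controls the highest library, replicate 3, was at 6.58 CPM while the other 3 lay between 5.88 and 5.91 CPM, a ratio of 0.958. For Crabp2 in B6 controls the lowest library, again replicate 3, was at 3.61 CPM, and the other 3 between 4.26 and 4.38 CPM, a ratio of 0.844.

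The stranded counts, which the comparisons do not use, gave a share of 54.4% in the first strand column for Stra6 with BMS493, above the 44.3% of the controls. The pattern rests on 384 and 587 counts in that column and its cause was not tested.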

How the results depend on the processing

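The fall of Stra6 averaged over strains and the higher Stra6, Crabp2 and Rbp4 of A/J averaged over treatments kept their calls in all 25 alternatives, Stra6 with BMS493 between strains in all 18, and Crabp2 between control strains in all 17. Stra6 in B6 lost its call with a replicate block (-1.17, adjusted p = 0.0502), from the first strand (-0.91), with only the groups compared (-1.15) and without B6 BMS493 replicates 2 and 3 (-0.75). Leaving out 1 library gave -1.35 to -0.87. Stra6 in A/J gained a call with no filter (-0.75), from the second strand (-1.07) and with only the groups compared (-0.76). The samples were not paired by replicate number: r between same-numbered libraries was -0.147 to 0.148 over 24 pairs, and the block changed no other call of the 4 genes, with 71 genes called in B6, 92 in A/J and 260 in the average.

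Between strains with BMS493, Crabp2 lost its call from the second strand (0.84), with only the groups compared (0.85) and without replicates 2 and 3 (0.35), and Rbp4 from the first strand (0.46) and without replicates 2 and 3 (0.51). Leaving out 1 library gave 0.59 to 1.06 for Crabp2 and 0.49 to 0.64 for Rbp4, and in controls 0.57 to 0.81 for Stra6 and 0.27 to 0.48 for Rbp4, which gained a call without A/J control replicate 4. Signs turned for values that passed no test: Crabp2 in B6 (0.16), Stra6 in the interaction (-0.012) and Crabp1 between strains with BMS493 (0.090) without replicates 2 and 3, Rbp4 from the second strand in B6 (-0.44) and averaged (-0.17), and Rbp4 from the first strand in the interaction (-0.070). With 1 library left out, Rbp4 in B6 gave -0.037 to 0.065, and in the interaction Crabp1 gave -0.25 to 0.23 and Crabp2 -0.46 to 0.020.

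Counts of genes called also moved. For BMS493 in B6 they were 73, with DESeq2 162, no filter 260, only the groups compared 27 and 27 to 201 without 1 library. In A/J they were 84, then 158, 178, 133 and 52 to 90. The interaction gave 1, then 2, 12 and 1 to 2 without 1 library, and the average 237, then 396, 487 and 165 to 371. Between strains with BMS493, 3447 fell to 2062 without replicates 2 and 3. Levels per length moved with the longest transcript, to 2.01 for Stra6, 4.00 for Rbp4 and 5.89 for Crabp2. Causes were not tested, except that the levels per length follow the shorter length used.

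The 4 genes had 29 to 298 counts per library, and the parts of counting error and of the spread between libraries in the intervals were not separated.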

Other observations

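None of the 10 neural crest and neuron markers was called with BMS493 in B6 or in A/J, and Tubb3 was called lower in the average, beside 1.09% of all genes. Their summed level in B6 was 30.7 to 35.8 CPM with BMS493 and 38.0 to 46.1 CPM in controls. Without replicates 2 and 3 of B6 BMS493, Stmn2 and Tubb3 were called lower in B6, beside 0.265% of all genes in that fit. The 7 neuroendocrine epithelium markers summed to 12.02 to 13.6 CPM with BMS493 and 14.3 to 18.7 CPM in controls of B6, and to 5.74 to 9.94 and 5.39 to 11.4 CPM in A/J. These sums were not tested.

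Rbp2, Rbp3, Rbp7 and Rlbp1, binding proteins of gut, retina and other tissues, had at most 3, 1, 12 and 21 counts in a library. Cyp26a1, the relative of Cyp26b1, had at most 3.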
